A study of Drosophila melanogaster with 5 samples.

Results

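The genes that keep, lose or gain a called peak of MLE (Maleless) in embryos aged 2-4 h, relative to embryos aged 0-2 h, are described here for female Drosophila melanogaster. The 4 libraries from embryos with maternal CLAMP, which binds GA repeats in DNA through its zinc fingers, were taken out of 5 in the series: 2 from embryos aged 2-4 h, after the maternal-to-zygotic transition, and 2 from embryos aged 0-2 h, before it. All 4 came from mothers of the genotype MTD-GAL4>GFPRNAi, in which a germline driver expresses a hairpin against GFP as a control, and from meiotic-drive fathers whose sperm carry X chromosomes only. MLE was mapped by CUT&RUN, in which an antibody, here a rat antibody against MLE, directs a nuclease to the protein on permeabilised embryos and the released DNA is sequenced. Embryos of several crosses and egg-layings went into the libraries, and no label says which replicate held which, so the spread between replicates may be technical.

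A gene was given a peak in a library when a peak of that library's list touched its RefSeq extent widened by 500 bp on both sides. Chromosomes X and 4 and the arms of chromosomes 2 and 3, called the main arms below, carried 17684 genes (dm6 assembly, 1-based coordinates). Within each replicate number a gene was called kept with a peak at 2-4 h and at 0-2 h, gained with a peak at 2-4 h alone, and lost with a peak at 0-2 h alone. The words describe called peaks in 1 pair of lists, not a measured change of binding.

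MLE is an RNA helicase that remodels the roX RNAs and joins them to the MSL proteins of the dosage compensation complex, which raises transcription of the male X chromosome. It is also made in females and is supplied to the egg by the mother, and outside dosage compensation it acts in RNA processing. The early embryo runs on maternal RNA and protein until the zygotic genome is activated, when maternal transcripts are cleared and patterning genes switch on in regions along the axes. The peak lists hold no RNA measurement, so the stage of each library rests on its label.

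The 2-4 h lists held 370 peaks in replicate 1 and 1589 in replicate 2, against 723 and 1247 in the 0-2 h lists. Median peak width was 82 bp and 2190 bp in these 2-4 h lists, against 100 bp and 110 bp in the 0-2 h lists. The 2-4 h replicate 2 library therefore stands apart, and results that rest on it are given beside those of replicate 1. Peaks on chromosome Y, which embryos labelled female should lack, numbered 3 and 17 at 2-4 h and 17 and 21 at 0-2 h, or 0.811% to 2.35% of a list. Read depth is unknown for all 4 libraries, and the sources used here do not say whether signal was scaled between them.

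In the 2-4 h libraries 269 genes (1.52% of all genes) had a peak in replicate 1 and 1075 (6.08%) in replicate 2. In the 0-2 h libraries 448 genes (2.53%) had one in replicate 1 and 721 (4.08%) in replicate 2. The mean was 672 ± 570 genes at 2-4 h and 584.5 ± 193 at 0-2 h (SD, n = 2 each), a difference of 87.5 genes with p = 1 in an exact two-sided permutation test whose smallest possible p was 0.3333. The difference had opposite signs in the replicate numbers, at -179 genes in replicate 1 and 354 in replicate 2, so it was smaller than the spread between replicates and had no common direction. A total of 1387 genes (7.84%) had a peak in at least 1 library, and they formed 861 loci when genes joined by a shared peak were counted once.

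Keeping and losing were seen in both replicate numbers, and gaining almost wholly in replicate 2. In replicate 1, 260 genes (1.47% of all genes) were kept, 9 (0.0509%) were gained and 188 (1.06%) were lost. In replicate 2, 460 genes (2.6%) were kept, 615 (3.48%) were gained and 261 (1.48%) were lost. Counted as loci, replicate 1 had 215 kept, 5 gained and 141 lost, and replicate 2 had 330, 314 and 226.

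**Figure D1:**
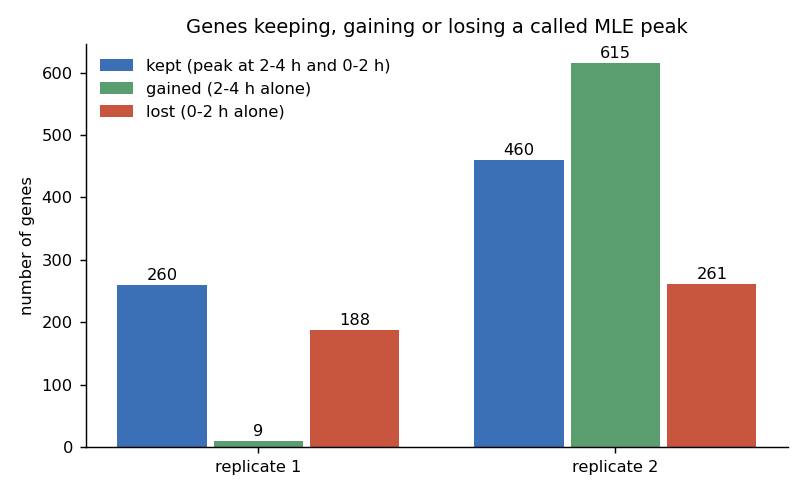
Number of main-arm genes (vertical axis) that kept, gained or lost a called MLE peak between 2-4 h and 0-2 h, as 1 bar per class within replicate 1 and within replicate 2, with no error bar because each bar is 1 pair of libraries. The 9 gained genes of replicate 1 stand against 615 in replicate 2, while kept and lost genes are found in both.

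Across the replicate numbers, 215 genes (1.22%) were kept in both, 74 (0.418%) were lost in both and 0 (0%) were gained in both. Of the 1387 genes with a peak, 406 had a class in both replicate numbers, and 289 of the 406 (71.2%) had the same class. The rest of the 1387 had a peak in 1 replicate number alone and are left out of that share. The 218 genes with a peak in both 2-4 h libraries all had a peak in at least 1 of the 0-2 h libraries. A further 45 genes were lost in replicate 1 and kept in replicate 2, 43 were kept in replicate 1 and lost in replicate 2, and 25 were lost in replicate 1 and gained in replicate 2. The largest group, 590 genes in 309 loci, was gained in replicate 2 and had no peak in either library of replicate 1. Likewise without a peak in replicate 1 were 197 genes kept in replicate 2 (42.8% of its kept genes) and 143 lost there (54.8% of its lost genes). Another 44 genes were lost in replicate 1 (23.4% of its lost genes) and had no peak in replicate 2. All classes depend on how long and wide the lists are. With every list kept to its 370 highest peaks, replicate 1 had 36 gained and 10 lost genes and replicate 2 had 155 kept, 150 gained and 121 lost. In both replicate numbers 71 genes were then kept, 1 gained and 0 lost. With peaks of at least 200 bp alone, 37 genes were kept, 5 gained and 6 lost in both.

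A kept gene nearly always kept the same site. In replicate 1 all 260 kept genes had overlapping peaks at the 2 ages, and the midpoints of their highest peaks lay a median of 1 bp apart. In replicate 2, 432 of 460 kept genes (93.9%) had overlapping peaks, with a median distance of 3 bp, and 28 had their peaks at separate places in the gene. Of the 215 genes kept in both replicate numbers, 206 (95.8%) had 1 site called in all 4 libraries. In replicate 1 the number of peaks per kept gene was lower at 2-4 h in 55 genes, higher in 0 and the same in the others. In replicate 2 it was lower at 2-4 h in 92 genes, higher in 38 and the same in 330.

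Whether a gene of the 0-2 h list was kept followed the rank of its peak there. The rank is given as a percentile, the place of the gene's highest peak by total signal within its own list, where 100 is the highest peak. Genes with a 0-2 h percentile above 80 were kept in 96.6% of 116 cases in replicate 1 and in 100% of 197 cases in replicate 2. At 0-2 h percentiles up to 20, 0% of 91 genes were kept in replicate 1 and 28.7% of 136 in replicate 2. The median 0-2 h percentile was 76.4 for kept genes and 20.2 for lost genes in replicate 1, and 76.4 and 32.1 in replicate 2. Lost genes were thus mostly genes with low-ranked peaks at 0-2 h, and the part of the peak threshold in the losses was not tested.

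**Figure D2:**
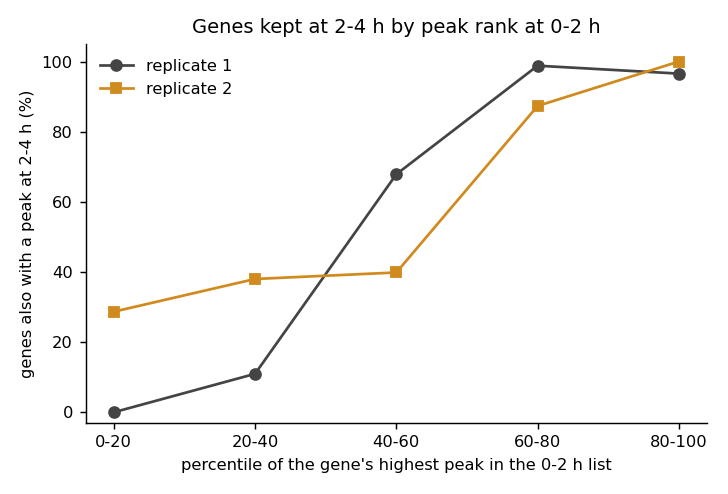
Percent of genes with a 0-2 h peak that also had a peak at 2-4 h (vertical axis), in 5 equal ranges of the percentile of the gene's highest peak in its 0-2 h list (horizontal axis), with 1 line per replicate number. The share kept lies at 0% and 28.7% in the lowest range and at 96.6% and 100% in the highest.

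The genes kept in both replicate numbers with the highest ranks were Glg1, spok, up, SK, gpp, ctrip, CG15465 and br. Each of the 8 lay at or above a percentile of 92.7 in every library, which is the value they were chosen by. The gene up, which encodes troponin T of muscle, had percentiles of 99.2 and 96.1 at 2-4 h and 99.6 and 97.4 at 0-2 h. Its peak began within 500 bp of one end of the gene in all 4 lists (X:13593787-13593950 in 2-4 h replicate 1).

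br encodes the Broad transcription factors of the ecdysone response, and its highest peak (X:1625502-1625570 in replicate 1 at both ages) also lay in Mur2B. Its percentiles were 97.8 and 94.7 at 2-4 h and 99.0 and 95.7 at 0-2 h. It held 5 peaks in each 2-4 h library, against 6 and 7 in the 0-2 h libraries, so fewer peaks were called at 2-4 h within each replicate number. The lists differ in length and peak width, so these are not counts of sites.

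CG15465, which overlaps the A-kinase anchor gene rg, shows a site that differed by replicate number and not by age. Its highest peak lay at X:5194717-5194800 in 2-4 h replicate 1 and at X:5194704-5194800 in 0-2 h replicate 1, with maximum signals of 3386 and 4721 in the authors' units. In replicate 2 it lay elsewhere in the gene, at X:5105296-5105786 at 2-4 h and X:5105476-5105574 at 0-2 h, with maximum signals of 285018 and 184240. The ubiquitin ligase gene ctrip likewise had its highest peak at 3R:4802117-4802257 in replicate 1 and at 3R:4786020-4787311 in replicate 2 at 2-4 h. Both genes were kept in each replicate number, at sites that the replicate numbers ranked differently.

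**Figure D3:**
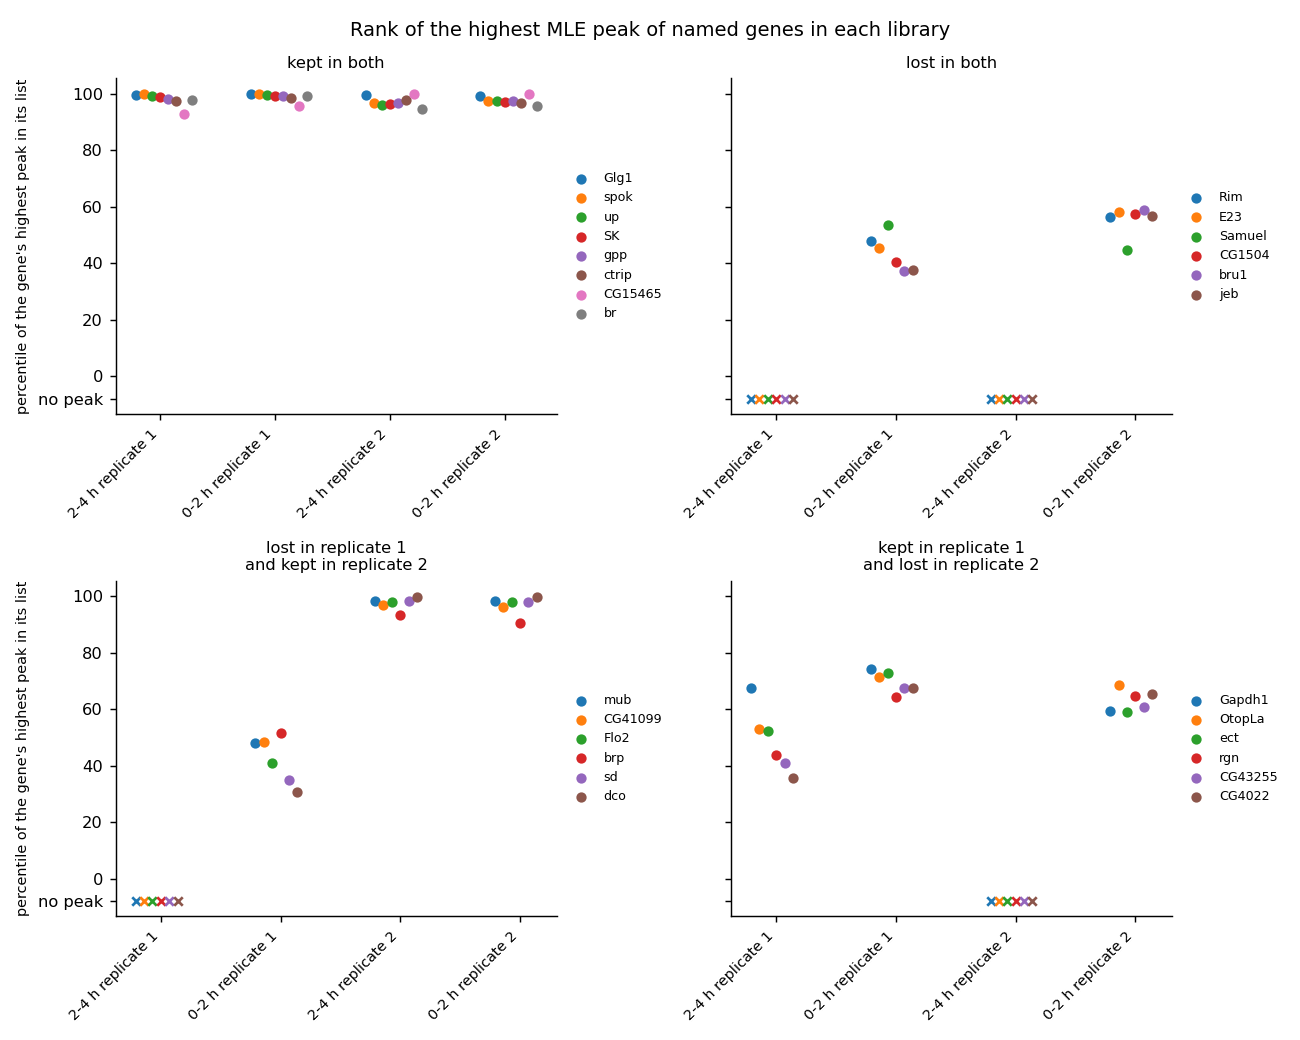
Percentile of the highest peak (vertical axis) of the named genes in each of the 4 libraries (horizontal axis), 1 colour per gene, with crosses for no peak, in 4 panels by class in the replicate numbers. The named genes were chosen by rank. Those kept in both lie above 92 in every library, and those lost in both lie at or below 58.9 in the 0-2 h libraries. The 6 genes lost in replicate 1 and kept in replicate 2 lie above 90 in both libraries of replicate 2. Over all 215 genes kept in both, the lowest percentiles were 0.541 and 0.157 at 2-4 h and 23.2 and 26.1 at 0-2 h. The full classes therefore overlap in rank.

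The genes lost in both replicate numbers with the highest 0-2 h ranks were Rim, E23, Samuel, CG1504, bru1 and jeb. Their peaks stood in the middle of the 0-2 h lists. With every list kept to 370 peaks, 5 of these 6 had no peak at either age, because their 0-2 h peaks fell out of the shortened lists. The exception was Samuel, with a peak in 1 of the 0-2 h libraries. None of the 6 was then lost in both. Rim, which organises the presynaptic active zone, had no peak at 2-4 h and percentiles of 47.9 and 56.5 at 0-2 h. E23, an ecdysone-induced ABC transporter gene, had no peak at 2-4 h and percentiles of 45.4 and 58.0 at 0-2 h, in a peak at 2L:3345823-3345867 in replicate 1.

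The gene bru1 encodes Bruno, the translational repressor of oskar mRNA. It had no peak at 2-4 h and 0-2 h percentiles of 37.2 and 58.8, in a peak deep inside its extent (2L:12277979-12278034 in replicate 1). The gene jeb encodes the ligand of the receptor kinase Alk, and had no peak at 2-4 h and 0-2 h percentiles of 37.6 and 56.5. Over all 74 genes lost in both, the 0-2 h percentile had a lowest value of 0.277, a median of 23.8 and a highest of 53.7 in replicate 1, and 14.7, 44.7 and 58.9 in replicate 2. None of the 74 reached the median 0-2 h percentile of the 215 genes kept in both, which was 80.5 in replicate 1 and 81.0 in replicate 2. The site was reproducible between the 0-2 h replicates, with overlapping peaks in 72 of the 74 genes.

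Genes lost in replicate 1 and kept in replicate 2 were led by mub, CG41099, Flo2, brp, sd and dco, which were named for their high mean percentiles. In replicate 2 the 6 had percentiles of 93.5 to 99.7 at 2-4 h and 90.5 to 99.7 at 0-2 h. In replicate 1 they had no peak at 2-4 h and percentiles of 30.7 to 51.5 at 0-2 h. Over all 45 genes of the class the median percentile in replicate 2 was lower, at 73.4 at 2-4 h and 60.4 at 0-2 h. The lowest values there were 1.64 and 1.68. In 0-2 h replicate 1 the class median was 19.8. The gene sd encodes the TEAD factor Scalloped, a partner of Yorkie, and had a maximum signal of 28333 at 2-4 h and 25151 at 0-2 h in replicate 2. In replicate 1 it had no peak at 2-4 h and a maximum signal of 388 at 0-2 h. Its replicate 2 peak (X:15826731-15826873 at 2-4 h) lay elsewhere in the gene than its replicate 1 peak (X:15817251-15817307).

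The gene mub encodes an RNA-binding protein that regulates splicing, and Flo2 encodes a flotillin of membrane microdomains. Both had their replicate 2 peak apart from the replicate 1 peak as well. The peak of brp, the active-zone gene Bruchpilot, lay at 2R:9540318-9542628 in 2-4 h replicate 2, at 2R:9540322-9540833 in 0-2 h replicate 2 and at 2R:9540560-9540602 in 0-2 h replicate 1. Of all 45 genes of this class, 28 (62.2%) had 1 site in the 3 libraries with a peak, and 17 had none common to the 3.

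A contrast between replicate numbers was also seen in heph, a gene kept in both. The gene heph encodes the polypyrimidine-tract binding protein Hephaestus, and its peak lay at 1 place in all lists (3R:31954974-31955069 in 2-4 h replicate 1). In replicate 1 its maximum signal was 453 at 2-4 h and 1247 at 0-2 h. In replicate 2 it was 1508910 at 2-4 h and 988806 at 0-2 h. The heph peak was the highest peak of both replicate 2 lists and lay at percentiles of 55.7 at 2-4 h and 88.5 at 0-2 h in replicate 1, so at 2-4 h its order among the peaks differed between the replicate numbers, as it did, by less, at 0-2 h.

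Genes kept in replicate 1 and lost in replicate 2 were led by Gapdh1, OtopLa, ect, rgn, CG43255 and CG4022, which were named for their high mean percentiles. Over all 43 genes of the class the median percentile was 16.2 in 2-4 h replicate 1. At 0-2 h it was 52.8 in replicate 1 and 58.9 in replicate 2. Gapdh1, the glycolytic glyceraldehyde-3-phosphate dehydrogenase gene, had percentiles of 67.3 in 2-4 h replicate 1, 74.1 in 0-2 h replicate 1 and 59.3 in 0-2 h replicate 2. OtopLa encodes an otopetrin proton channel and had 53.0, 71.5 and 68.4 in the same 3 libraries. For CG43255 the peak (X:8924571-8925006 in 2-4 h replicate 1) lay outside the gene, in its flank, and also in rdgA, a diacylglycerol kinase gene. All 43 genes of this class had 1 site in the 3 libraries with a peak.

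The 9 genes gained in replicate 1 came from 5 peaks, and 8 of them had only peaks shared with other genes. The peak nearest the top, at a percentile of 99.5, put a call on Hr78, a nuclear receptor gene, through the Glg1 peak, which spanned 3L:21497986-21498677 in 2-4 h replicate 1 and 3L:21498527-21498682 in 0-2 h replicate 1 and reached the flank of Hr78 at 2-4 h alone. CG11695 was gained with lncRNA:roX2 through 1 peak (X:11578766-11579124) at a percentile of 45.4. CG42507 overlaps Trl, which encodes GAGA factor, and both were gained through 1 peak (3L:14754094-14754528) at a percentile of 11.1.

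The remaining gained genes of replicate 1 had peaks in replicate 2. CG14036, Nepl3 and His3.3A, which encodes the replacement histone H3.3, shared 1 peak (2L:5055258-5055561) at a percentile of 1.89 in 2-4 h replicate 1, and were kept in replicate 2. Hsc70-4, a cytosolic Hsp70 chaperone gene, had a peak (3R:15244391-15245412) at a percentile of 19.7 in 2-4 h replicate 1 and one at 24.6 in 0-2 h replicate 2, and was therefore gained in replicate 1 and lost in replicate 2.

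The gained genes of replicate 2 lay under wide, low peaks. Their 615 genes were touched by 334 peaks with a median width of 3149 bp, and 0 of these peaks were under 200 bp wide. The median maximum signal of a gained gene's highest peak was 19, against 711.5 for kept genes in the same 2-4 h list, and their median percentiles were 27.3 and 73.8. Of the 615 genes, 447 (72.7%) had only peaks that touched other genes too, and 77 were touched in the flank alone. A peak that also overlapped a 0-2 h replicate 2 peak outside the gene's region lay behind 111 of them (18.0%), so in those genes the 2-4 h peak reached further than the 0-2 h peak beside it.

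The highest ranked gained genes of replicate 2 were CG31516, His4:CG33877, His4:CG33907, Ugt304A1, His2A:CG33820 and CG1888. CG1888 had a percentile of 93.5 through the wide brp peak given above. CG31516 had 97.5 through a peak at 3R:4217718-4218542 that was shared with aux, the auxilin gene of clathrin uncoating. Ugt304A1, a UDP-glycosyltransferase gene, had 94.2 through a peak in its flank (3R:11172669-11173012) shared with its relative Ugt35A1. In 5 of these 6 genes the midpoint of the maximum lay outside the gene, the exception being His2A:CG33820.

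Histone genes made up the single largest block of gained genes. The list held 123 histone genes, nearly all in the repeated cluster on 2L, which formed 10 loci. Of these genes 118 had a peak in some library. With the midpoint of the maximum required in the gene region 37 had one, and with peaks under 200 bp 0 had one. In replicate 2, 45 were kept, 73 gained and 0 lost, while in replicate 1, 0 were kept, 1 was gained and 14 were lost. In 2-4 h replicate 2 a peak of 57985 bp (2L:21481475-21539459) touched 71 genes, among them histone genes, at a percentile of 97.2 with its maximum signal at 60. A neighbouring peak of 25123 bp (2L:21415883-21441005) lay at a percentile of 95.9. These peaks ranked high by total signal, which is summed over their length, and had low maximum signals.

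In the 0-2 h lists the histone cluster had other, shorter peaks, such as 2L:21417111-21420691 at His4:CG33909 in replicate 1. His4:CG33909 had a percentile of 95.9 in 2-4 h replicate 2, no peak in 2-4 h replicate 1 and 31.4 in 0-2 h replicate 1. His2A:CG33859 had 97.2 in 2-4 h replicate 2 and 5.53 in 0-2 h replicate 1. The histone gene copies are near-identical in sequence, as are those of the 5S rRNA genes, so the placement of reads among copies is uncertain. Of 98 rRNA genes, 5 were kept, 0 gained and 11 lost in replicate 1, and 6 were kept, 25 gained and 0 lost in replicate 2.

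Kept genes were long. The median length was 26889.5 bp for genes kept, 2267 bp for genes gained and 12195 bp for genes lost in replicate 1, and 19819.5, 2132 and 16241 bp in replicate 2, against 1710 bp over all genes. Of the genes over 100 kb, 31.5% were kept, 0% gained and 16.9% lost in replicate 1, and 53.9% were kept, 16.9% gained and 13.5% lost in replicate 2. Of the genes under 1 kb, 0.272% were kept in replicate 1 and 1.25% in replicate 2. The median gene length is therefore given beside the counts of some of the gene lists.

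**Figure D4:**
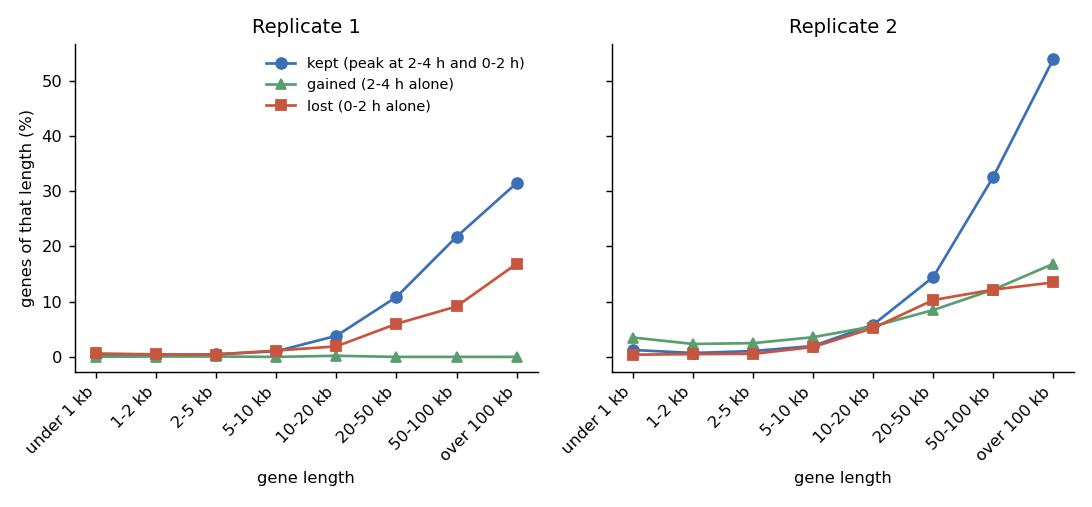
Percent of the genes of each length (vertical axis) that kept, gained or lost a called MLE peak, over 8 ranges of gene length in kb (horizontal axis), in 1 panel per replicate number. The kept share reaches 31.5% of genes over 100 kb in replicate 1 and 53.9% in replicate 2, and the gained share lies near 0 in replicate 1.

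Most kept peaks lay away from the gene ends. The midpoint of the highest peak was inside the gene and over 500 bp from either end in 79.2% of kept genes at 2-4 h and 78.8% at 0-2 h in replicate 1, and in 62.8% and 63.7% in replicate 2. Lost genes had 62.8% in replicate 1 and 73.2% in replicate 2, and gained genes of replicate 2 had 33.2%. A longer gene has more of its extent away from its ends, and these shares were not matched for gene length. They therefore do not show that peaks avoid gene ends, nor that the classes differ in this beyond their lengths. Exons, introns and untranslated regions were not distinguished, because the gene table gives extents only.

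The X chromosome held 15.3% of all genes. Among genes with a peak, 45.4% and 23.1% lay on X at 2-4 h, against 36.2% and 35.4% at 0-2 h. The means were 34.2 ± 15.8% at 2-4 h and 35.8 ± 0.561% at 0-2 h (SD, n = 2 each), a difference of -1.55 percentage points with an exact two-sided permutation p = 1, and the difference was 9.19 points in replicate 1 and -12.3 in replicate 2. Adjusted over this value and the number of genes with a peak by Benjamini-Hochberg, p was 1 for both in the exact permutation test.

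Within replicate 1 the X chromosome held 46.2% of kept genes, 22.2% of gained genes (2 of 9) and 22.3% of lost genes. Of the 0-2 h genes on X, 74.1% were kept there, against 49.0% on the autosomal arms. Within replicate 2 the shares on X were 35.0% of kept, 14.1% of gained and 36.0% of lost genes, and 63.1% of 0-2 h genes on X and 64.2% on the autosomal arms were kept. The higher kept share on X was thus seen in replicate 1 and not in replicate 2, and the difference between the replicate numbers was not tested. On the small chromosome 4, 11 of 114 genes were kept in replicate 2 and 1 in replicate 1.

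The gene lists were read against the shares of all genes given above, 1.47% kept and 1.06% lost in replicate 1 and 2.6% kept, 3.48% gained and 1.48% lost in replicate 2. Genes of the maternal-to-zygotic handover itself showed each of the classes. Of 9 activators of the zygotic genome, 7 had a peak, with a median gene length of 17084 bp. In replicate 1, 1 was kept, 1 gained and 2 lost, and in replicate 2, 3 were kept, 1 gained and 2 lost.

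Among these activators Clamp was kept in both replicate numbers. Of the 8 dosage compensation genes, Clamp and lncRNA:roX2 had a peak, and mle itself had none. The gene psq, which encodes the GAGA-binding factor Pipsqueak, was lost in replicate 1 and kept in replicate 2, with percentiles of 85.0 at 2-4 h and 85.2 at 0-2 h in replicate 2 and 23.8 in 0-2 h replicate 1. Stat92E, the JAK/STAT transcription factor gene, had a peak in replicate 2 at both ages, at 7.24 at 2-4 h and 4.17 at 0-2 h, and at separate places.

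The gene grh, which encodes the transcription factor Grainy head and was named after its class was seen, was gained in replicate 2 at 25.4. The pioneer factor gene zld, likewise named, had no peak at 2-4 h and a peak at a percentile of 22.3 in 0-2 h replicate 2 alone. Of 13 genes for the clearance of maternal mRNA, brat was kept in both, with percentiles of 66.5 and 68.3 at 2-4 h and 82.4 and 83.9 at 0-2 h. Its peak (2L:19145212-19145281 in 2-4 h replicate 1) lay at 1 place in all libraries. The gene nanos, a translational repressor of the posterior pole, was kept in replicate 2 at 94.5 at 2-4 h and 92.6 at 0-2 h and had no peak in replicate 1. Its peak (3R:19159976-19160056) was shared with CG11779 and Nsun5.

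Also in that list, pum, the partner of Nanos, was lost in replicate 1 and kept in replicate 2, at 19.5 at 2-4 h and 25.8 at 0-2 h and at different places. The gene twin, which encodes the CCR4 deadenylase, was gained in replicate 2 at 57.0. Of 34 maternal axis and germ plasm genes, 30 had no peak in any library. Beside nanos, pum and bru1, the exception was osk, the germ plasm organiser, which was gained in replicate 2 at a percentile of 3.21 through a peak shared with ScsbetaA and lncRNA:osk. None of the 21 genes of the cleavage cell cycle, whose median length was 3049 bp, had a peak. Neither did any of the 7 early zygotic cellularisation genes, whose median length was 846 bp.

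Patterning genes, many of which switch on around these ages, showed each class as well. Of 17 pair-rule and segment polarity genes 4 had a peak: opa and ftz-f1 were kept in both, hry was kept in replicate 1 with no peak in replicate 2, and wg was gained in replicate 2. The pair-rule zinc finger gene opa had percentiles of 82.2 and 82.1 at 2-4 h and 89.6 and 88.7 at 0-2 h, in a peak at 3R:4867880-4867952 in 2-4 h replicate 1. The repressor gene hry had 89.2 at 2-4 h and 92.7 at 0-2 h in replicate 1. The gene wg, which encodes the Wnt ligand Wingless, was touched in its flank in 2-4 h replicate 2 (2L:7316284-7319793), at a percentile of 42.9.

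Of 11 homeotic genes and partners, Abd-B was kept in both, hth and Antp were lost in both, and tsh and Ubx were gained in replicate 2. Abd-B, the most posterior homeotic gene, had percentiles of 32.4 and 52.9 at 2-4 h and 55.6 and 66.9 at 0-2 h (3R:16934364-16934420 in 2-4 h replicate 1). Antp had no peak at 2-4 h and 14.9 and 50.2 at 0-2 h. The Hox cofactor gene hth had no peak at 2-4 h and 28.8 and 46.0 at 0-2 h. These genes are long, with a median of 26862 bp for the list, and their peaks at 0-2 h stood in the lower and middle part of the lists.

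Of 15 gap and terminal genes, croc was gained in replicate 2 and oc was lost in replicate 1. Of 22 dorsoventral genes, the neural gene vnd was kept in replicate 2 at 89.2 at 2-4 h and 87.5 at 0-2 h. The repressor gene brk was lost in both, with no peak at 2-4 h and percentiles of 7.05 and 51.5 at 0-2 h, and its peak was shared with CG1677 and lncRNA:CR44357. Doc1 was gained in replicate 2 at 20.8. Of 20 genes of X counting and sex determination only fru had a peak, and it was lost in both, with 0-2 h percentiles of 7.19 and 40.5.

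**Figure D5:**
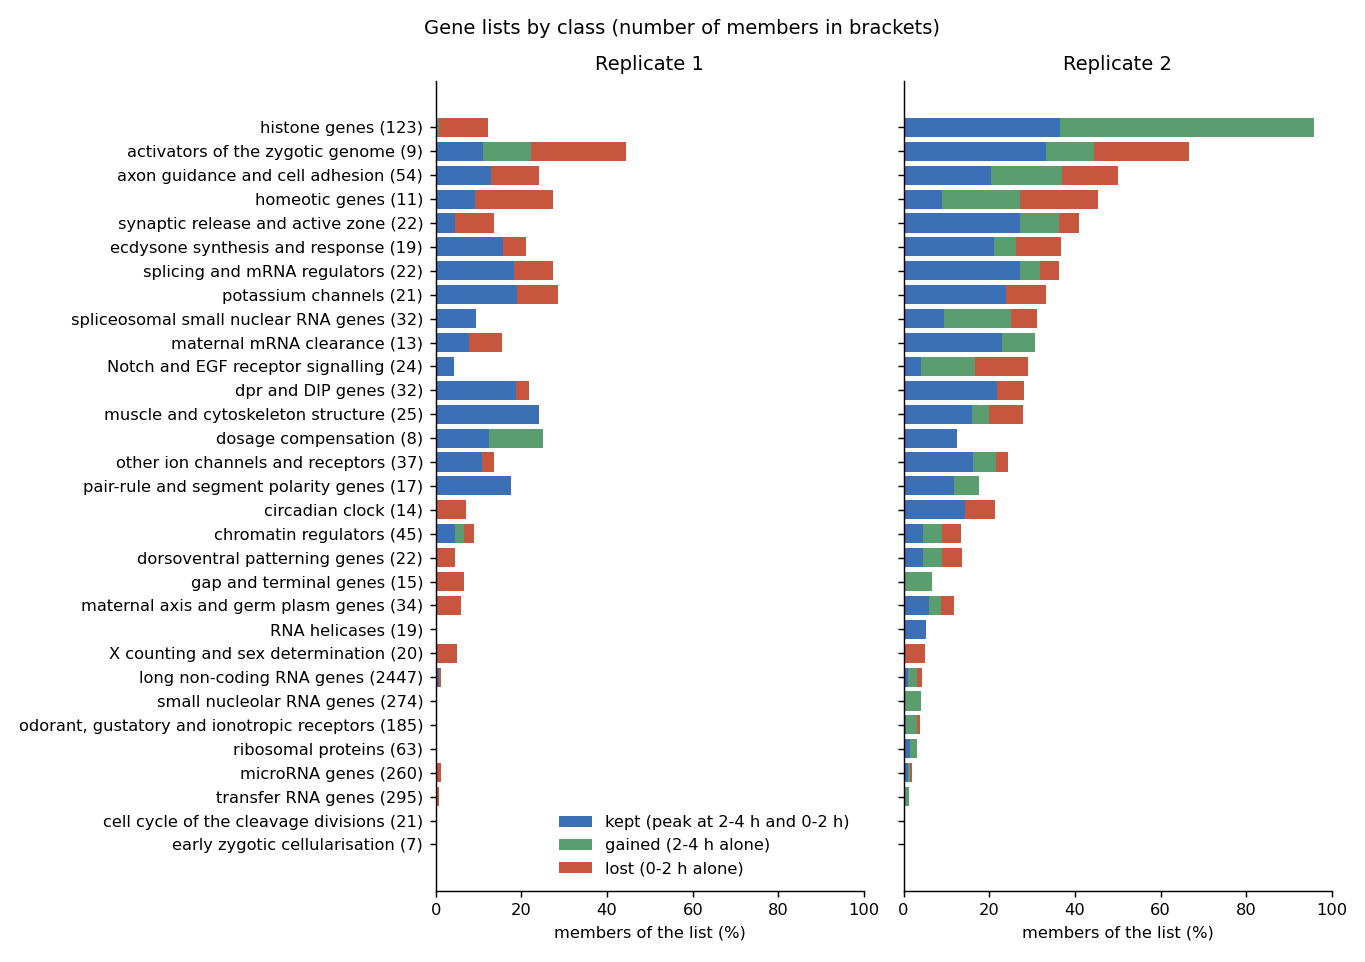
Percent of the members of each gene list (horizontal axis) that kept, gained or lost a called MLE peak, as stacked bars with the number of members in brackets, in 1 panel per replicate number. Histone genes stand out in replicate 2 with 45 kept and 73 gained of 123, and the cell cycle and cellularisation lists have no bar in either panel.

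Genes known for their work in neurons were found among kept genes in both replicate numbers, and they are long. Of 21 potassium channel genes, with a median length of 17718 bp, 4 were kept and 2 lost in replicate 1, and 5 were kept and 2 lost in replicate 2, with 0 gained in either. SK, slo, Sh and Hk were kept in both. The gene slo, a calcium-activated channel, had percentiles of 72.4 and 73.7 at 2-4 h and 84.4 and 85.5 at 0-2 h. Sh, which encodes the Shaker channel, had 64.1 and 60.3 at 2-4 h and 76.3 and 77.2 at 0-2 h, with 2 peaks in each 2-4 h library and 3 and 5 in the 0-2 h libraries.

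Hk, the beta subunit of Shaker, had 57.3 and 55.8 at 2-4 h and 78.1 and 81.5 at 0-2 h. For slo, Sh and Hk the percentile was therefore lower in both 2-4 h lists than in both 0-2 h lists. The order was not particular to them. Over all 215 genes kept in both, the median percentile was 63.2 and 67.8 at 2-4 h and 80.5 and 81.0 at 0-2 h. The ranks come from lists of 370 to 1589 peaks, which differ in which low peaks they hold, so this order shows no change of binding. Of 37 other ion channels and receptors, with a median length of 22295 bp, para, stj, nAChRalpha3 and Ca-alpha1T were kept in both. The sodium channel gene para had 78.9 and 74.1 at 2-4 h and 84.0 and 83.0 at 0-2 h, in a peak shared with Cnx14D.

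Of 54 genes of axon guidance and cell adhesion, whose median length was 37213 bp, 28 had a peak, and 9 had one with every list kept to 370 peaks. In replicate 1, 7 were kept, 0 gained and 6 lost, and in replicate 2, 11 were kept, 9 gained and 7 lost. The 7 kept in both included side, whose product guides motor axons and which had 96.5 and 92.3 at 2-4 h and 98.1 and 94.5 at 0-2 h (3R:27426184-27426552 in 2-4 h replicate 1). The teneurin gene Ten-a had 96.2 and 88.1 at 2-4 h and 97.6 and 92.0 at 0-2 h, with 3 and 6 peaks at 2-4 h and 5 and 8 at 0-2 h. Con, which encodes the adhesion protein Connectin, had 93.2 and 87.3 at 2-4 h and 96.5 and 92.2 at 0-2 h.

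Sema1a, Sema2a and Nlg4, named after their classes were seen, were lost in both. The neuroligin gene Nlg2 was lost in replicate 1, at 23.9, and gained in replicate 2, at 36.9, with overlapping peaks of 2L:6894734-6898113 at 2-4 h and 2L:6897505-6898166 at 0-2 h. It therefore had a called peak at 1 place in 1 library of each age.

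The dpr and DIP genes encode pairs of immunoglobulin-domain proteins that match neurons to their partners. Of 32 members, with a median length of 32525.5 bp, 6 were kept and 1 lost in replicate 1, and 7 were kept and 2 lost in replicate 2, with 0 gained in either. DIP-beta had percentiles of 85.1 and 87.7 at 2-4 h and 92.5 and 90.7 at 0-2 h, and DIP-alpha had 78.1 in both 2-4 h lists and 86.7 and 87.2 at 0-2 h. For dpr16 the peak (3R:5149505-5150477 in 2-4 h replicate 1) lay in the flank and beyond it in all 4 libraries, at 97.0 and 92.5 at 2-4 h and 97.5 and 93.7 at 0-2 h.

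Regulators of splicing and mRNA were kept in like manner: of 22 members, with a median length of 35036 bp, 4 were kept and 2 lost in replicate 1, and 6 were kept, 1 gained and 1 lost in replicate 2. Those kept in both were heph, bru3, fne and Rbfox1. The gene bru3, a relative of bru1, had percentiles of 96.8 and 90.2 at 2-4 h and 98.2 and 93.3 at 0-2 h (3L:13629556-13629659 in 2-4 h replicate 1). The ELAV-family gene fne had 73.2 and 62.8 at 2-4 h and 83.5 in both 0-2 h lists. Of 19 RNA helicase genes, the family MLE belongs to, only Dbp80 had a peak, and it was kept in replicate 2 at 96.9 at 2-4 h and 95.9 at 0-2 h.

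Muscle and cytoskeleton genes had a peak in 7 cases. Of 25 members, with a median length of 10886 bp, 6 were kept in replicate 1 with 0 gained and 0 lost, and 4 were kept, 1 gained and 2 lost in replicate 2. The cytoplasmic actin gene Act5C was kept in both at low ranks, at 26.5 and 0.378 at 2-4 h and 34.2 and 50.5 at 0-2 h, under a peak spanning X:5902731-5903829 in 2-4 h replicate 1. Zasp52, a Z-disc gene, had 26.8 and 34.4 at 2-4 h and 58.9 and 69.4 at 0-2 h. Tm1, which encodes tropomyosin, and wupA, which encodes troponin I, were named after their classes were seen, and both were kept in replicate 1 and lost in replicate 2.

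Of 19 ecdysone genes, with a median length of 31677 bp, spok, br and ftz-f1 were kept in both. The response gene Eip93F, named after its class was seen, was lost in both. Of 45 chromatin regulators, with a median length of 6487 bp, gpp was kept in both, and 38 had no peak. The SWI/SNF ATPase gene brm was gained in replicate 2 at 23.4 through a peak shared with CG17026, CG17027, CG17028 and CG17029. Of 24 genes of Notch and EGF receptor signalling, with a median length of 22224.5 bp, mam, the Notch coactivator Mastermind, was kept in both. Its percentiles were 55.9 and 54.0 at 2-4 h and 74.4 and 77.6 at 0-2 h. Delta was lost and kuz, the protease that cleaves Notch, was gained in replicate 2 alone. Of 63 ribosomal protein genes, with a median length of 1411 bp, RpL32 was kept and RpL22 gained in replicate 2, and the remainder had no peak.

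The 22 genes of synaptic release and the active zone had a median length of 27781 bp. In replicate 1, 1 was kept and 2 lost, and in replicate 2, 6 were kept, 2 gained and 1 lost. The gene cpx, which encodes complexin, was kept in replicate 2 alone, at 94.3 at 2-4 h and 92.9 at 0-2 h. Of 14 circadian clock genes, dco and sgg were kept in replicate 2 and Clk was lost there. Of 185 odorant, gustatory and ionotropic receptor genes, 7 had a peak, and 5 of them were gained in replicate 2.

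Small non-coding genes are given by kind. Of 32 snRNA genes, 3 were kept in each replicate number, and 5 were gained and 2 lost in replicate 2. In the cluster of snRNA:U6:96Aa, snRNA:U6:96Ab and snRNA:U6:96Ac, copies of the U6 spliceosomal RNA, all 3 were kept in both through 1 peak (3R:24556082-24557326 in 2-4 h replicate 1) that also touched Esyt2 and REPTOR, at percentiles of 86.5 and 73.1 at 2-4 h and 93.5 and 83.6 at 0-2 h. The copies are near-identical, so read placement among them is uncertain. None of the 274 small nucleolar RNA genes was kept or lost, and 11 were gained in replicate 2. Of 295 transfer RNA genes 6 had a peak, 4 of them gained in replicate 2 and 2 lost in replicate 1. Of 260 microRNA genes 6 had a peak, and mir-4946 was kept in both through a peak beside it in tup, an islet-family homeobox gene.

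Of 2447 long non-coding RNA genes, with a median length of 720 bp, 19 were kept, 1 gained and 9 lost in replicate 1. In replicate 2, 26 were kept, 50 gained and 28 lost. The kept shares were below those of all genes, which are longer at the median, in both replicate numbers. Those with the highest ranks lay over coding genes or were long themselves. asRNA:CR43933 shared the Glg1 peak, and lncRNA:CR43960 shared the Ten-a peak. lncRNA:CR44999, 149629 bp long on X, had percentiles of 98.6 and 96.0 at 2-4 h and 96.4 and 95.0 at 0-2 h, with its highest peak at X:3453201-3453280 in 2-4 h replicate 1 and X:3433377-3433525 in 2-4 h replicate 2.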

How the data were processed

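The values were 1 deposited peak list per library, with the authors' signal per peak as a total and a maximum, in the layout of SEACR. Per the submitters' processing notes, the build was dm6 and the tools were SEACR 1.3, Bowtie2 2.4.4, Trimmomatic 0.40, deepTools and bcl2fastq 2.17, with no roles stated. What served as control, the peak threshold and whether a yeast spike-in set the scale are not stated in the sources used here. Depth is unknown, so ranks of peaks were taken within a list only. Maximum signals are printed as deposited, and their sizes cannot be compared between libraries.

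Gene extents came from RefSeq (Release 6 plus ISO1 MT), without strand, exons or sequence, so motifs at the peaks were not analysed here. Counting used Python 3.11.15 with pandas 2.3.3. An overlap of at least 1 bp counted. The 2 values tested over the 4 libraries used an exact permutation test, and all else is description. Genes named were those with the highest mean percentile per class and up to 4 members of each list, those called in the most libraries first. The 31 gene lists and the classes were chosen with earlier results of these data known. All list entries were matched to a gene. On simulated lists, 200 isolated genes were each given a narrow peak at the gene midpoint or none, and the class of all 200 was recovered. Wide peaks, shared peaks and peaks in the flank were not simulated, so the simulation does not bear on them. The result for 1 gene of the activator list is not reported here.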

Additional observations from a re-analysis of the deposited data

Results flagged for a closer look

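Peaks were called on chromosome Y, outside the genes compared, although the embryos were labelled female. Replicates 1 and 2 had 3 and 17 such peaks at 2-4 h, and 17 and 21 at 0-2 h. All but the 3 of 2-4 h replicate 1 exceeded a floor of 3 peaks, which was a chosen limit and not a test. Their highest maximum signal was 322 and 52758 at 2-4 h and 618 and 49959 at 0-2 h, in replicates 1 and 2. The source of these peaks was not tested.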

How the results depend on the processing

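Without the widening by 500 bp and with protein-coding genes only, no class count moved past 1.5 times and no difference changed sign. The difference in genes with a peak, 87.5, became 51.5 with protein-coding genes only, 27.5 with lists of 370 peaks, 304 with peaks of at least 200 bp, -54 with the midpoint of the maximum in the gene region, -74.5 with at least 50% of the peak there, -5.5 with the upper 50% of each list and -244 with peaks under 200 bp, a setting chosen after seeing the data. The X share difference, -1.55 points, became -0.888 without the widening, -2.60 with protein-coding genes only, -0.181 with 50% overlap, -7.51 with lists of 370 peaks, -2.89 with the upper 50% of each list, 0.0934 with the midpoint, 0.966 with peaks of at least 200 bp and 7.45 with peaks under 200 bp. Gained genes of replicate 2, 615 as reported, numbered 328 with the midpoint, 299 with 50% overlap and 811 with peaks of at least 200 bp.

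With every list kept to 370 peaks, replicate 1 had 36 gained and 10 lost genes, replicate 2 had 155 kept, 150 gained and 121 lost, and 71 were kept, 1 gained and 0 lost in both. With the upper 50% of each list, replicate 1 had 144 kept, 1 gained and 97 lost, replicate 2 had 281, 215 and 130, and 122 were kept in both. With peaks of at least 200 bp, replicate 1 had 42 kept, 24 gained and 123 lost, replicate 2 had 198 kept and 104 lost, and 37 were kept, 5 gained and 6 lost in both. With peaks under 200 bp, 113 were lost in replicate 1, 88 were kept, 15 gained and 402 lost in replicate 2, and 46 were kept in both.

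Leaving out each replicate number in turn gave differences of -179 to 354 genes and -12.3 to 9.19 points of X share, 260 to 460 genes kept, 9 to 615 gained and 188 to 261 lost. Of 352 values for single named genes, 226 stayed, 124 moved and 2 changed sign: Nepl3 to -1 with 50% overlap and Flo2 to 1 with peaks of at least 200 bp, where 1 is a peak gained and -1 a peak lost. Of 243 counts of list members with a peak, 67 moved. The 118 histone genes became 37 with the midpoint, 26 with 50% overlap and 0 with peaks under 200 bp, and the 28 axon guidance and adhesion genes became 9 with lists of 370 peaks, 10 with the upper 50% of each list and 15 with peaks under 200 bp. The cause of these shifts was not tested. With the replicate number as a block the differences stay at 87.5 genes and -1.55 points, with an exact sign-flip permutation p of 1. The labels do not say whether same-numbered libraries are paired. Their deviations were correlated at 0.268 over all genes and 0.0360 over genes with a peak. A further 197 genes had a peak at both ages in replicate 2 and none in replicate 1. These values do not decide whether the libraries were paired. Unknown depth and 2 libraries per age limit every count.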
